A study of Malus domestica with 6 samples.

Results

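The expression of 1 dihydroflavonol reductase gene and 2 anthocyanidin synthase genes was followed in skin taken from mature apples (Malus domestica) of the cultivar 'Royal Gala'. The members are the rows MD15G1024100 (dihydroflavonol reductase), MD03G1001100 (anthocyanidin synthase) and MD06G1071600 (anthocyanidin synthase) of the GDDH13 annotation, 3 of the 48602 rows of the fruit skin tables. They were chosen by identifier, and the enzyme names came with that list. The deposited tables and the gene table at hand pair no names with these identifiers, so the names were not checked against the data. The labels describe 2 groups of 3 libraries each, the wild type (WT) and plants that carry a miR172 transgene, both in the 'Royal Gala' background and both from mature fruit skin. They call the libraries of a group biological samples, numbered 1 to 3. They do not name the promoter of the transgene, the number of transgenic lines, the age of the plants or whether the fruit came from separate trees. Flower stages of the same study were not analysed here.

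Anthocyanins are the red pigments of apple skin, and they are made at the end of the flavonoid pathway. Dihydroflavonol reductase reduces dihydroflavonols to leucoanthocyanidins and so draws substrate away from the flavonols. Anthocyanidin synthase, also called leucoanthocyanidin dioxygenase, oxidises leucoanthocyanidins to the coloured anthocyanidins, which are then glycosylated and moved to the vacuole. Anthocyanidins and leucoanthocyanidins also feed the branches to proanthocyanidins, so neither enzyme serves red colour alone. The microRNA miR172 represses transcription factors of the APETALA2 type. The title of the study links it to the control of anthocyanin synthesis, and the comparison of the genotypes asks how the levels of such pathway genes differ.

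Levels are given in FPKM, which the authors derived by dividing fragments by gene length in kilobases and by a measure of library size. The number of reads behind each value was recovered from the FPKM, since the values of a gene are whole multiples of what 1 read is worth. The libraries held 17012710 to 23702606 recovered reads. All values come from bulk skin, in which fewer cells of a type and less RNA per cell cannot be told apart. The tissue could not be checked against markers of skin, because no names are paired with the identifiers.

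MD03G1001100 fell in miR172 skin. MD15G1024100 and MD06G1071600 had lower mean levels there too, but their difference did not pass the threshold of adjusted p = 0.05. By group means the level of MD03G1001100 was 7.24 times as high in WT as in miR172 skin, that of MD15G1024100 3.58 times and that of MD06G1071600 2.85 times. Thus 1 of the 3 members was called (limma on log2(FPKM + 1), adjusted over 24668 genes), where 8.59% of all tested genes were called and 3.35% were called as lower. The median log2 fold change of the members was -1.67, beside -0.0033 over all tested genes.

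**Figure D1:**
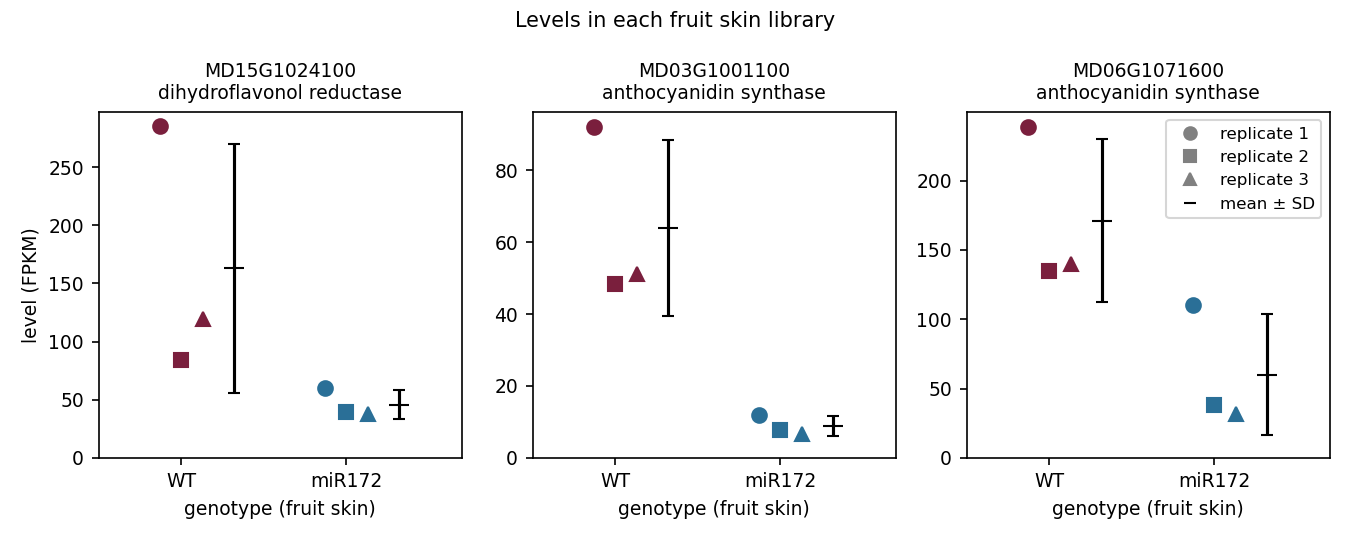
The level in FPKM (vertical axis, from 0) of each gene is plotted for the 3 WT and the 3 miR172 fruit skin libraries, with marker shapes for replicate numbers and bars for the mean ± SD. Each WT library of MD03G1001100 lies at 48.4 FPKM or more and each miR172 library at 12.0 FPKM or less, while the gap is narrow for MD06G1071600, between 110 and 135 FPKM.

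The reductase, MD15G1024100, makes the colourless precursor of the anthocyanidins. Its level was 285, 84.5 and 119 FPKM in WT replicates 1, 2 and 3. In miR172 replicates 1, 2 and 3 it was 59.9, 39.0 and 37.5 FPKM. WT replicate 1 stood far above the other WT libraries, and the lowest WT library was 1.41 times the highest miR172 library. The WT mean was 163 ± 107 FPKM and the miR172 mean 45.5 ± 12.5 FPKM (SD, n = 3). The log2 fold change was -1.66 ± 0.45 (SE), with an unadjusted 95% interval of -2.68 to -0.63 and a limma adjusted p of 0.059. Without WT replicate 1 the ratio of the means was 2.24 in place of 3.58 (limma adjusted p = 0.055). Without WT replicate 2 the log2 fold change was -2.03, and the limma adjusted p of 0.047 passed the threshold. No other fit with a library left out passed for this gene, and the largest limma adjusted p was 0.19.

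MD03G1001100 is the less abundant of the synthase rows. It stood at 92.0, 48.4 and 51.1 FPKM in WT replicates 1, 2 and 3. It stood at 12.0, 7.74 and 6.75 FPKM in miR172 replicates 1, 2 and 3. The genotypes were well apart, with the lowest WT library at 4.04 times the highest miR172 library. The means were 63.8 ± 24.5 FPKM and 8.82 ± 2.77 FPKM (SD, n = 3). The log2 fold change was -2.70 ± 0.32 (SE), with an unadjusted 95% interval of -3.44 to -1.95 and a limma adjusted p of 0.0027. Of the 24668 tested genes 147 had a lower log2 fold change. Leaving out any library kept the ratio of the means between 5.64 and 8.81 and the limma adjusted p between 0.0033 and 0.017.

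MD06G1071600 is the more abundant synthase row. Its level was 239, 135 and 140 FPKM in WT replicates 1, 2 and 3. Its level in miR172 replicates 1, 2 and 3 was 110, 37.9 and 31.9 FPKM. Here miR172 replicate 1 stood apart, at 2.91 times the median of its group, and came within 1.22 times of the lowest WT library. The means were 171 ± 58.5 FPKM and 60.1 ± 43.7 FPKM (SD, n = 3). The log2 fold change was -1.67 ± 0.48 (SE), with an unadjusted 95% interval of -2.77 to -0.57 and a limma adjusted p of 0.072. Without miR172 replicate 1 the ratio of the means was 4.90 in place of 2.85. The log2 fold change was then -2.22, and the limma adjusted p of 0.021 passed the threshold. With any other library left out the gene did not pass, and the largest limma adjusted p was 0.23.

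In the deposited FPKM the libraries of the genotypes did not overlap for any of the 3 members, as for 30.1% of all tested genes, and for 14.9% in the same direction. This separation depended on the scaling between libraries. The divisors behind the deposited FPKM were 0.833 to 0.883 times the recovered read total in the WT libraries. In miR172 skin they were 0.899 to 1.20 times that total, with replicate 1 at the top. When the reads were scaled to the recovered totals instead, MD15G1024100 ranged from 70.3 to 252 FPKM in the WT and from 33.7 to 72.0 FPKM in the transgenic libraries. MD06G1071600 then ranged from 112 to 211 FPKM in the WT and from 28.7 to 133 FPKM in the transgenic libraries. Both thus overlapped under that scaling, in each case through miR172 replicate 1. For MD15G1024100 the order of miR172 replicate 1 and WT replicate 2 was within counting error, with exact 95% Poisson intervals of 68.8 to 75.3 and 67.0 to 73.8 FPKM. For MD06G1071600 the interval of miR172 replicate 1, 128 to 137 FPKM, lay above those of WT replicates 2 and 3. The genotypes did not overlap for MD03G1001100 under that scaling, at 40.3 to 81.2 FPKM in the WT against 6.07 to 14.4 FPKM in the transgenic libraries. Under median-ratio scaling the genotypes did not overlap for any of the 3.

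**Figure D2:**
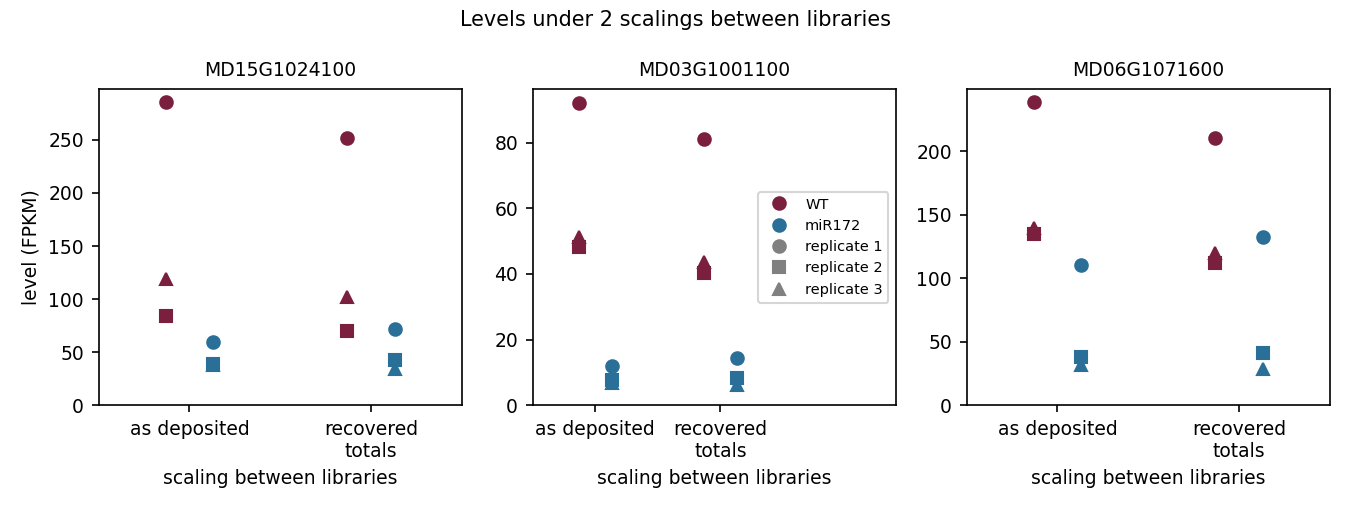
The level in FPKM (vertical axis, from 0) of each gene is shown for every library as deposited and after scaling to recovered read totals, with colours for the genotypes and marker shapes for the replicate numbers. After that scaling miR172 replicate 1 reaches the WT range for MD15G1024100 (72.0 against 70.3 FPKM) and MD06G1071600 (133 against 112 FPKM), and stays below it for MD03G1001100 (14.4 against 40.3 FPKM).

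Under scaling to recovered totals the median log2 fold change over the whole set of tested genes was 0.25. The log2 fold changes were then -1.36 for MD15G1024100 (limma adjusted p = 0.13), -2.40 for MD03G1001100 (limma adjusted p = 0.0079) and -1.37 for MD06G1071600 (limma adjusted p = 0.16). Relative to that median they were -1.61, -2.66 and -1.62. As deposited, they were -1.65, -2.69 and -1.67 relative to the median of all tested genes. All 3 genes were lower in miR172 skin under either scaling, by group means. The difference was smaller after scaling to recovered totals, but relative to the median it was nearly the same. Over all genes the share of calls that were higher in miR172 skin was 78.2% under this scaling, against 61.0% as deposited. This share also moved with other settings, and was lowest, at 49.5%, with a filter of 5 FPKM. Across the alternatives run without a block, only the 2 fits that left out 1 library, WT replicate 2 for MD15G1024100 and miR172 replicate 1 for MD06G1071600, brought these genes past the threshold. Both also passed in the fit with the replicate number as a block, but no label states that equal numbers mark paired libraries.

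**Figure D3:**
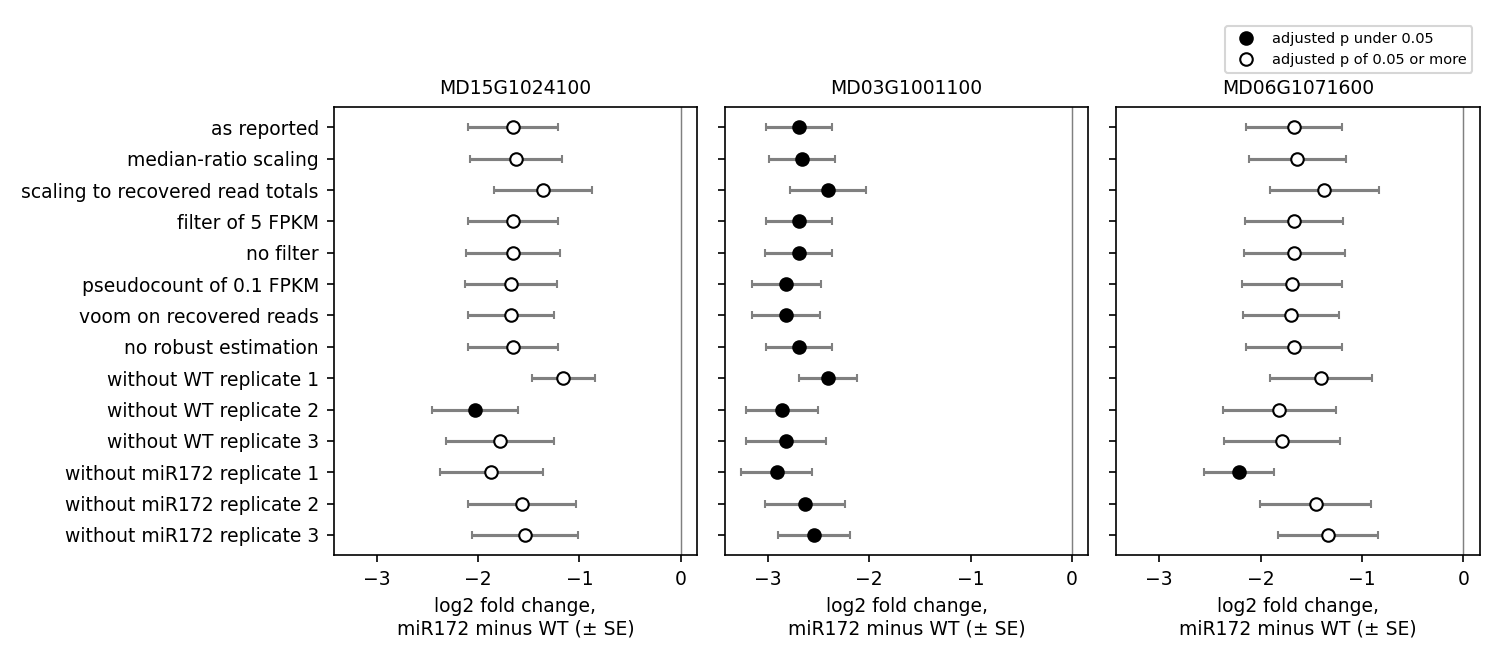
The log2 fold change of each gene (horizontal axis, miR172 minus WT, ± SE) is shown as reported and under the 13 alternatives without a replicate block, with filled points where the limma adjusted p was under 0.05. Among these, MD03G1001100 is filled throughout, MD15G1024100 is filled only without WT replicate 2, and MD06G1071600 only without miR172 replicate 1. The fit with the replicate number as a block, in which all 3 genes passed, is not drawn.

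The genes were abundant transcripts of WT skin. Ranked by FPKM among the 48602 rows, MD15G1024100 was at place 312, 1835 and 1144 in WT replicates 1, 2 and 3. MD06G1071600 was at place 403, 1075 and 926. MD03G1001100 was at place 1324, 3146 and 2855. In miR172 skin MD03G1001100 was far down the order, at places 9247 to 13312, while MD15G1024100 was at 1824 to 3629 and MD06G1071600 at 817 to 4257. A rank compares genes within a library and does not depend on the scaling between libraries. It does depend on the levels of the other genes in that library. In the deposited FPKM, miR172 replicate 1 had 25536 genes at 1 FPKM or more and WT replicate 2 had 22458. By rank, MD15G1024100 in miR172 replicate 1 (1824) and in WT replicate 2 (1835) could not be put in order, and MD06G1071600 in miR172 replicate 1 (817) stood above WT replicates 2 and 3. Of the 3731 tested genes at least as abundant by mean FPKM as MD03G1001100, 304 (8.15%) were called lower and 105 (2.81%) higher. Over all tested genes 3.35% were called lower.

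Counting error was small beside the spread between libraries of a genotype. The lowest read number was 241, for MD03G1001100 in miR172 replicate 3, where the exact 95% Poisson interval of the level was 5.93 to 7.66 FPKM. The highest was 6505, for MD15G1024100 in WT replicate 1, with an interval of 278 to 292 FPKM. Such intervals cover counting error only. The counting error was 1.24% to 6.44% of a value, whereas the SD between libraries of a genotype was 27.5% to 72.8% of the mean. The spread was widest for MD06G1071600 in miR172 skin (72.8%) and for MD15G1024100 in WT skin (65.9%).

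The share of MD03G1001100 among the synthase rows was lower in every miR172 library than in any WT library. MD03G1001100 made up 27.8%, 26.4% and 26.8% of the summed FPKM of both synthase rows in WT replicates 1, 2 and 3. In miR172 replicates 1, 2 and 3 it made up 9.78%, 17.0% and 17.5%. The WT libraries lay within a narrow range although the summed level itself ran from 183 to 331 FPKM, and the miR172 libraries were all below them. The mean share was 27.0 ± 0.75% in WT and 14.7 ± 4.30% in miR172 skin (SD, n = 3), a difference of -12.3 percentage points (two-sided exact permutation test, p = 0.10, the smallest p that 3 libraries against 3 allow). Put as a ratio, MD06G1071600 was 2.59 to 2.79 times as high as MD03G1001100 in WT and 4.73 to 9.23 times as high in miR172 skin. Both values come from the same library, so the scaling between libraries cancels in them. Whether the rows share reads could not be examined without sequences.

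**Figure D4:**
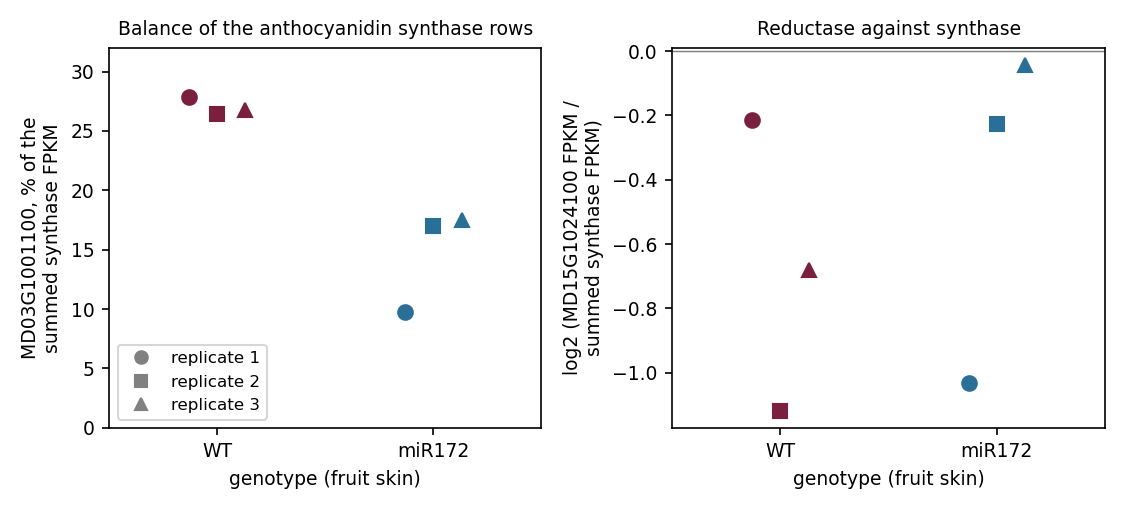
The left panel shows the share of MD03G1001100 in the summed synthase FPKM (%, axis from 0) and the right panel the log2 ratio of MD15G1024100 to that sum, with 1 point for each library and marker shapes for replicate numbers. The WT shares cluster at 26.4% to 27.8% above miR172 shares of 9.78% to 17.5%, whereas the log2 ratios of the genotypes overlap.

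The ratio of the listed reductase row to the sum of the listed synthase rows did not separate the genotypes. It compares transcript levels of the 3 rows only. The level of MD15G1024100 was 0.863, 0.461 and 0.623 times the summed synthase level in WT replicates 1, 2 and 3. It was 0.489, 0.855 and 0.970 times that sum in miR172 replicates 1, 2 and 3. The ranges overlapped, with WT replicate 1 among the high values and miR172 replicate 1 among the low ones. The mean log2 ratio was -0.67 ± 0.45 in WT and -0.43 ± 0.53 in miR172 skin (SD, n = 3), a difference of 0.24 (two-sided exact permutation test, p = 0.60, where 0.10 is the smallest possible). With each library left out in turn the difference stayed positive, from 0.01 to 0.54. Given the overlapping ranges and that exact p, a shift of this ratio was not shown. The summed level of both synthase rows averaged 235 ± 83.0 FPKM in the WT libraries and 68.9 ± 46.5 FPKM in the miR172 libraries (SD, n = 3), or 3.41 times as high in WT. Without miR172 replicate 1 it was 5.57 times as high in WT.

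In the deposited FPKM the 3 genes varied together within a genotype. Replicate 1 held the highest level of all 3 genes in WT and again in miR172 skin, an order that 13.1% of all tested genes showed. Of the tested genes at least as abundant by mean FPKM as MD03G1001100, 6.08% showed it. On the log2(FPKM + 1) scale, WT replicate 1 lay above the WT mean by 1.00 for MD15G1024100, 0.58 for MD03G1001100 and 0.53 for MD06G1071600. The corresponding deviations of miR172 replicate 1 from its group mean were 0.42, 0.44 and 1.09. After the genotype means were taken out, deviations over the 6 libraries correlated at a Pearson r of 0.95 between MD15G1024100 and MD03G1001100, 0.89 between the synthase rows and 0.73 between MD15G1024100 and MD06G1071600. These are descriptions of 6 libraries that all 3 genes share. Replicate 1 stayed highest for all 3 genes in either genotype after scaling to recovered totals. The correlations were not computed under another scaling or for other pairs of genes.

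Among the other 24665 tested genes, 132 had a Pearson r of at least 0.95 with the mean of the standardised log2(FPKM + 1) profiles of the 3 genes over the 6 libraries. MD00G1085100 was the closest, at r = 0.998. Its level was 25.2, 8.95 and 10.1 FPKM in WT replicates 1, 2 and 3 and 4.14, 1.64 and 0.996 FPKM in miR172 replicates 1, 2 and 3. All its miR172 libraries lay below its WT libraries, which the choice by profile makes likely. Its log2 fold change of -2.25 is given as a description, with no test. The next was MD05G1209200, at r = 0.995, but its level ran only from 14.6 to 16.2 FPKM over all 6 libraries (log2 fold change -0.08). A high r over 6 libraries thus says nothing of the size of a change. No names are paired with either identifier.

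The rows next to the 3 genes by identifier, whose digits run along the chromosome, were weakly expressed or were not called as lower. Before MD15G1024100 stood a row that rose from a mean of 3.63 to 12.9 FPKM in miR172 skin (log2 fold change 1.60, limma adjusted p = 0.0089). The row after it was at 27.4 and 20.4 FPKM (limma adjusted p = 0.27). The row before MD03G1001100 averaged 14.0 FPKM in the WT and 10.8 FPKM in the miR172 libraries (limma adjusted p = 0.38), and the row after it stayed below 1 FPKM in every library. Both rows beside MD06G1071600 were listed at 0 in all 6 libraries. No coordinates were used, so overlaps between these rows were not examined.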

How the data were processed

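Poly-A RNA of 6 fruit skin samples, 3 WT and 3 miR172, was made into strand-specific libraries, read from both ends and mapped with Bowtie2 to GDDH13, per the labels' protocols. The submitters' processing notes also list DESeq2 (1.16.1), featureCounts (1.5.0-p3), StringTie (1.3.3b) and HISAT2 (2.0.5), without roles. The authors deposited FPKM, per the file headers. The sources used here give neither the scaling method nor whether counting used strand. A further 12 columns in 4 tables match no sample described here and were not used.

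Reads were recovered by a search for lengths of 50 to 40000 bases that made them whole within 0.0001 reads plus a relative 3e-09. All 37804 rows above 0 came out whole. A row above 0 in few libraries comes out whole easily in such a search. The stricter check is on the 23856 rows above 0 in all 6 libraries, which were also whole. Limma version 3.58.1 in R version 4.3.3 tested log2(FPKM + 1), with a trend and robust empirical Bayes, for genes that averaged 1 FPKM or more. The test was two-sided, with Benjamini-Hochberg adjustment over all genes tested. SciPy version 1.17.1 gave exact permutation tests. Scripts were tested on simulated data. The members, lists and tests were chosen with earlier results of these data known. The named genes were the 3 members and the 2 genes with the closest profile. A list of other pathway genes and one of tissue markers were not run, for want of names. The labels call the samples biological and leave unsaid whether each is a different plant, so part of the spread behind the p-values may be technical.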

Additional observations from a re-analysis of the deposited data

How the results depend on the processing

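All 3 genes had a lower level in miR172 skin under each of the 14 alternatives run. MD03G1001100 passed the threshold in all of them, with log2 fold changes of -2.91 to -2.40 with a library left out and -2.82 to -2.40 otherwise. With a library left out, MD15G1024100 ranged from -2.03 to -1.16 and MD06G1071600 from -2.22 to -1.34. Their limma adjusted p then ran from 0.047 to 0.19 and from 0.021 to 0.23. With the replicate number as a block the log2 fold changes were -1.66 for MD15G1024100 (limma adjusted p = 0.010), -1.67 for MD06G1071600 (limma adjusted p = 0.0088) and -2.70 for MD03G1001100 (limma adjusted p = 0.00049), and the block gave 2308 calls. Over all genes, same-numbered libraries had deviations that correlated at 0.10, 0.101 and 0.039, and WT replicate 3 correlated best with miR172 replicate 2, at 0.103. The numbers were not taken to pair the libraries, and the fit without the block stayed the one reported. Under the block the difference in synthase share was -12.3 percentage points (exact paired permutation test, p = 0.25, the smallest that 3 pairs allow) and that of the log2 ratio 0.24 (exact p = 0.75). The count of called genes, 2118, was 1268 with voom on recovered reads, and 816 to 2622 with a library left out. Genes called lower, 827, numbered 469 with scaling to recovered totals, 534 with no filter and 248 to 1158 with a library left out. The causes were not tested. Counting error limited the order of MD15G1024100 in miR172 replicate 1 and WT replicate 2 after scaling to recovered totals, and 3 libraries per genotype allow no exact p below 0.10.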
